A study of Mus musculus with 11 samples.

Results

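The pyramidal layer of the hippocampus is divided into the fields CA1, CA2 and CA3, and 10 genes that mark these fields were followed in the whole hippocampus of adult mice whose mothers had eaten different amounts of folic acid (FA) before mating. The 10 genes are 4 markers of CA1 (Wfs1, Fibcd1, Mpped1 and Pou3f1), 3 markers of CA2 (Rgs14, Amigo2 and Pcp4) and 3 markers of CA3 and the hilus (Bok, Iyd and Coch). They were taken by name from the 38293 genes in the count tables, and every one of the 10 was counted in every mouse and entered the tests. No field was dissected, so each value is the RNA of one gene summed over the whole tissue, and fewer cells of a field and less RNA per cell cannot be told apart.

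Hippocampal RNA was sequenced from 11 wildtype F1 mice of a cross between 129S6/SvEv and C57BL/6J, all aged 14 weeks. The CD group (3 males, 3 females) came from dams on a control diet with 2.3 mg FA per kg, and the FD group (2 males, 3 females) came from dams given 40 mg FA per kg before mating only. Both groups of offspring were gestated and raised under the control diet, which every dam ate once mated. The labels do not give the litter of a sequenced mouse, so p-values measure the spread between these mice, of which some may share a litter. The gene counts summed to between 11737554 and 44447006 per mouse, with a median of 21148672.

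The hippocampal trisynaptic path runs from the dentate gyrus through CA3 to CA1, with CA3 axons reaching CA1 as the Schaffer collaterals. CA3 is known for its recurrent excitatory connections, CA1 is the main output to the subiculum and cortex, and CA2 is a small field between them known for resistance to long-term potentiation and for a part in social memory. Each field keeps its own set of expressed genes in the adult, and a marker here is a gene known to be enriched in one field, although several are also expressed in other parts of the brain.

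The CA1 markers are a varied group of proteins. Wfs1 (ENSMUSG00000039474, chr5:36966104-36989205 in GRCm38, minus strand) encodes wolframin, a membrane protein of the endoplasmic reticulum. Fibcd1 (ENSMUSG00000026841, chr2:31813290-31846005, minus strand) encodes a transmembrane receptor with a fibrinogen-like domain. Mpped1 (ENSMUSG00000041708, chr15:83779467-83858494, plus strand) encodes a protein with a metallophosphoesterase domain, and Pou3f1 (ENSMUSG00000090125, chr4:124656807-124660655, plus strand) encodes a POU-domain transcription factor.

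Among the CA2 markers, Rgs14 (ENSMUSG00000052087, chr13:55369732-55384687, plus strand) encodes a regulator of G-protein signalling known to restrain synaptic plasticity in CA2 neurons. Amigo2 (ENSMUSG00000048218, chr15:97244125-97247287, minus strand) encodes a neuronal adhesion protein, and Pcp4 (ENSMUSG00000090223, chr16:96467606-96525793, plus strand) encodes a small calmodulin-binding protein that is also abundant in the striatum and in Purkinje cells. Among the CA3 and hilus markers, Bok (ENSMUSG00000026278, chr1:93685660-93695764) encodes a member of the Bcl-2 family, Iyd (ENSMUSG00000019762, chr10:3540240-3554877) encodes iodotyrosine deiodinase, which recovers iodide from iodinated tyrosines, and Coch (ENSMUSG00000020953, chr12:51593341-51605771) encodes cochlin, an extracellular matrix protein of the inner ear.

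The annotation places exons of another gene over 3 of the 10 markers. Pou3f1 shares 330 bases with Gm2164 on the opposite strand and Pcp4 shares 243 bases with Igsf5 on the same strand, and neither partner is a row of the count tables. Amigo2 shares 58 bases with Pced1b on the opposite strand, which had 1231 counts in all 11 mice together. Whether the counting used strand is not given in the sources used here, so reads from these short stretches cannot be assigned with certainty.

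Levels were compared between genes as TMM-normalized CPM (counts scaled to library size) divided by the length of the merged exons in kilobases (kb). Mpped1 had the highest mean level, at 54.3 ± 4.23 CPM per kb (SD, n = 11), and Pcp4 followed at 48.7 ± 6.77 CPM per kb. Wfs1 reached 42.4 ± 6.27 CPM per kb and Fibcd1 35.5 ± 4.15 CPM per kb. These ranks were close, since Mpped1 exceeded Pcp4 in 9 of the 11 mice and Pcp4 exceeded Wfs1 in 8 of the 11, with overlapping ranges.

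Rgs14 stood at 29.0 ± 4.005 CPM per kb and Bok at 21.5 ± 3.69 CPM per kb, with Rgs14 above Bok in each of the 11 mice although their ranges over mice overlapped. A gap without overlap followed to Amigo2 at 10.7 ± 1.43 CPM per kb and Pou3f1 at 9.19 ± 1.06 CPM per kb, and these 2 were not separated beyond their spread. Iyd (2.74 ± 0.363 CPM per kb) and Coch (2.63 ± 0.665 CPM per kb) lay lowest, again after a gap without overlap, and Iyd exceeded Coch in only 5 of the 11 mice. In the order of all 20250 tested genes with a length, the 10 markers ranged from the 50.9th percentile for Coch to the 96.6th percentile for Mpped1.

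**Figure D1:**
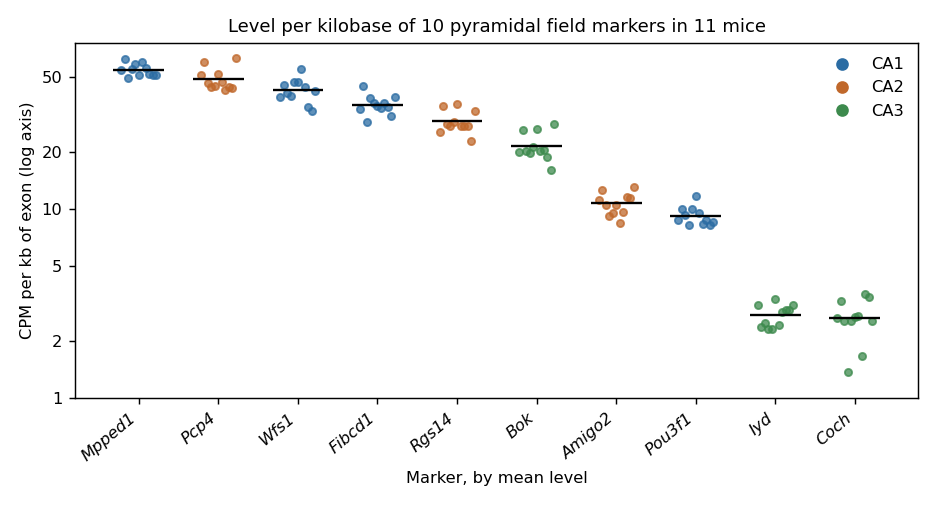
Each point is the level of one marker in one of the 11 mice, as CPM per kb of exon on a log axis, with the markers ordered by mean (black line) and coloured by field. Gaps without overlap lie between Bok and Amigo2 and between Pou3f1 and Iyd, whose means are 9.19 and 2.74 CPM per kb.

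The markers also differed in how much they varied from mouse to mouse. Mpped1 was the steadiest, with a coefficient of variation of 7.8% over the 11 mice, and Coch the most variable at 25.3%, where the highest mouse had 2.6 times the level of the lowest. Coch and Iyd also rested on the fewest reads, from 48 to 340 counts per mouse for Coch and from 44 to 167 for Iyd, so counting error forms part of their spread. The other markers had between 340 counts (Amigo2, CD female 2) and 11054 counts (Mpped1, CD male 3) in a mouse.

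The first comparison asked whether maternal FA before mating went with a different level of the field markers in the offspring. None of the 10 markers passed the test between FD and CD F1 mice. Of all 20589 genes tested, 14 (0.068%) passed an adjusted p of 0.1 in edgeR's quasi-likelihood test, all of them higher in FD F1 mice. Of the 10 markers, 0 did. An unadjusted p under 0.05 was found for 534 genes (2.59%) and 0 markers. DESeq2 called 18 genes (0.087%) and 0 markers. With 10 markers, 0 lies near these shares and is no result about the markers as a group. The fitted log2 fold changes, FD over CD, lay between -0.15 and 0.10, with standard errors (SE) from 0.06 to 0.18, and the ranges of the diet groups overlapped for every marker. Their median was -0.04, against -0.004 over all genes tested. With sex as a covariate in edgeR, Pou3f1 had an unadjusted p of 0.0351 and Rgs14 one of 0.0659, both with an adjusted p of 0.922. With the replicate numbers as a block in edgeR, the unadjusted p was 0.0477 for Pou3f1 and 0.0339 for Rgs14. The adjusted p was then 0.728 and 0.704, so neither passed.

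All 4 CA1 markers had slightly lower mean levels in the FD group, none past the test. In the CD group Wfs1 ranged from 147.4 through a median of 162.7 to 177.9 CPM. In the FD group the values were 208.7, 167.1, 130.1, 124.0 and 159.2 CPM, so the FD group held both the highest and the lowest mouse. The log2 fold change was -0.04 (SE 0.11, adjusted p = 1.0 in edgeR).

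Pou3f1 showed the lowest ratio among the 10 markers. CD F1 mice ranged from 31.5 through a median of 37.0 to 44.9 CPM, and the FD F1 mice had 36.6, 32.1, 33.4, 31.6 and 32.9 CPM. The FD values were tightly grouped at the lower end of the CD range, and the lowest mouse of all, CD female 2, was a control. The log2 fold change of -0.15 (SE 0.08) had an unadjusted p of 0.0699 and an adjusted p of 1.0 in edgeR. Without CD female 3, the mouse with the highest level, it was -0.09.

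Fibcd1 had 171.3 ± 24.8 CPM in CD (n = 6) and 165.8 ± 13.5 CPM in FD F1 mice (n = 5). Mpped1 had 235.8 ± 20.2 CPM in CD and 230.1 ± 17.1 CPM in FD F1 mice. Both differences were smaller than the spread within either group, with log2 fold changes of -0.05 (SE 0.09) for Fibcd1 and -0.03 (SE 0.06) for Mpped1.

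**Figure D2:**
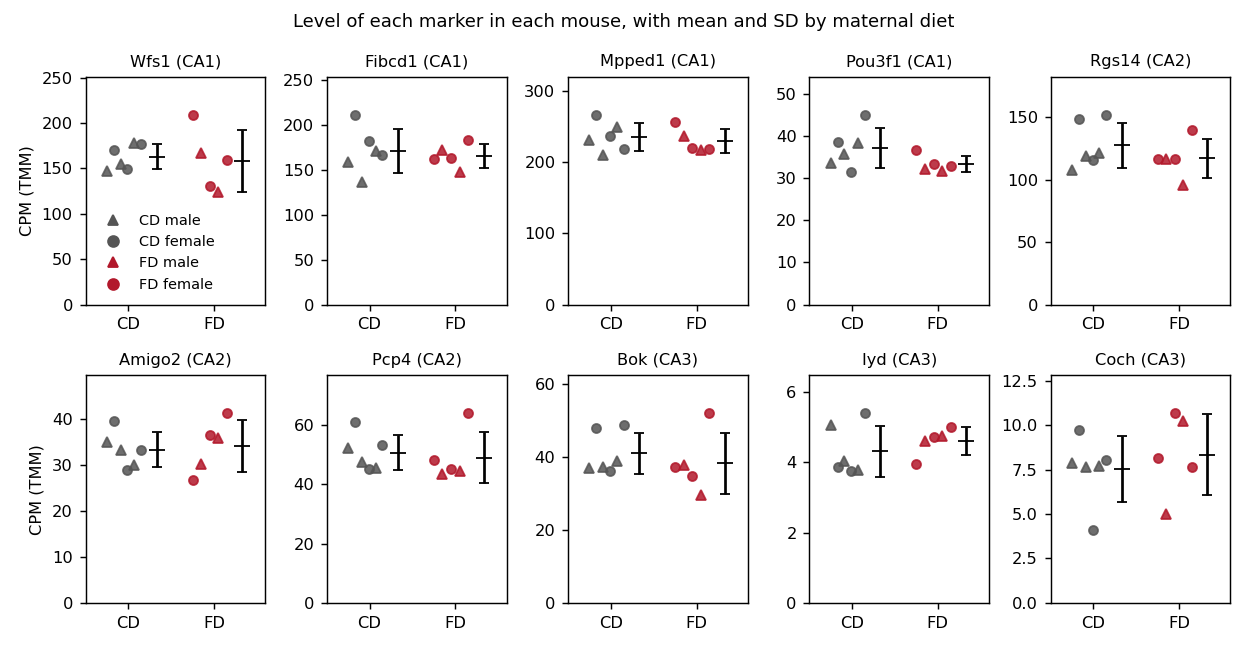
Each panel shows one marker, with the level in CPM of each CD mouse (grey, n = 6) and FD mouse (red, n = 5), males as triangles and females as circles, and the black bars giving mean ± SD. The groups overlap in every panel, and in the Pcp4 and Bok panels one FD female (63.97 and 51.84 CPM) lies above all other mice.

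The CA2 markers did not move in one direction. Rgs14 ranged in CD F1 mice from 108.0 through a median of 120.5 to 151.7 CPM. The FD F1 mice had 116.7, 116.6, 116.4, 96.1 and 139.9 CPM. FD male 2 was the lowest mouse of all 11, while FD female 3 stood among the 3 highest. The log2 fold change was -0.12 (SE 0.10, adjusted p = 1.0 in edgeR).

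Amigo2 had 33.4 ± 3.82 CPM in CD and 34.1 ± 5.72 CPM in FD F1 mice, with a log2 fold change of 0.02 (SE 0.10). The FD group held both the lowest mouse, FD female 1 at 26.7 CPM, and the highest, FD female 3 at 41.3 CPM. Pcp4 ranged in CD F1 mice from 45.1 through 49.8 to 61.0 CPM, and the FD F1 mice had 48.1, 43.5, 45.2, 44.4 and 64.0 CPM. For Pcp4, 4 of the 5 FD values lay at or below 48.1 CPM and FD female 3 was the highest mouse of all. Its log2 fold change was -0.05 (SE 0.10, adjusted p = 1.0).

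The CA3 and hilus markers were also divided. Bok ranged in CD F1 mice from 36.2 through 38.0 to 48.5 CPM, and the FD F1 mice had 37.2, 37.7, 34.6, 29.4 and 51.8 CPM. As for Pcp4 and Amigo2, the highest of all mice was FD female 3. The log2 fold change of Bok was -0.09 (SE 0.12, adjusted p = 1.0 in edgeR).

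Iyd ranged in CD F1 mice from 3.76 through 3.94 to 5.39 CPM, and the FD F1 mice had 3.95, 4.62, 4.72, 4.74 and 5.01 CPM. Its log2 fold change was 0.10 (SE 0.12). Coch ranged in CD F1 mice from 4.10 through 7.78 to 9.74 CPM, and the FD F1 mice had 8.17, 5.00, 10.7, 10.2 and 7.62 CPM. Coch had the largest positive ratio of the 10, with a log2 fold change of 0.10, and also the largest SE, 0.18. Leaving out 1 mouse at a time, the ratio of Coch ranged from 0.000317 (without CD female 2) to 0.239, and that of Iyd from 0.0516 to 0.166. The lowest Coch value of all mice was that of CD female 2.

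One FD library carried more RNA of some genes that mark the striatum, a neighbouring part of the forebrain. Adora2a, the adenosine receptor of the indirect pathway, reached 3.93 CPM in FD female 3 and 0.994 to 1.38 CPM in the other 10 mice, and Ppp1r1b, a phosphatase inhibitor downstream of dopamine receptors, reached 54.3 CPM against 29.0 to 41.5 CPM. Not every striatum marker set this library apart. Another had 7.33 CPM in FD female 3 but 7.56 CPM in FD female 1, and a further one 10.2 CPM against 9.90 CPM in FD female 2.

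The 5 striatum markers together summed to between 46.0 and 87.7 CPM in FD and between 46.8 and 57.6 CPM in CD F1 mice, with none at 0 in any mouse. The summed level moved with that of Pcp4 (r = 0.765), Bok (r = 0.759) and Rgs14 (r = 0.601) over the 11 mice, given as a description without a test. With the summed hilar mossy cell markers r was higher for each, at 0.87 for Pcp4, 0.965 for Bok and 0.913 for Rgs14. With further CA2 markers r was also higher, at 0.771, 0.923 and 0.898 in the same order. With further CA1 markers r was lower, at 0.0227, 0.108 and 0.139. Relations of this size were thus not limited to the striatum list. The sums of the other lists rest largely on single genes. In FD female 3, Ptpn5 gave 156.3 CPM of the further CA2 markers and Calb2 66.0 CPM of the mossy cell markers. Whether these lists are free of striatal RNA was not tested. Without FD female 3, the log2 fold change between diets became -0.17 (SE 0.08) for Pcp4, -0.23 (SE 0.10) for Bok, -0.19 (SE 0.09) for Rgs14 and -0.06 (SE 0.10) for Amigo2, the last with a change of sign. In that edgeR fit the adjusted p was 0.899 for Pcp4, Bok and Rgs14, and none passed. Without FD male 2, the mouse lowest for Rgs14 and Bok, the ratios were instead near 0, at -0.0131 for Pcp4, -0.0125 for Bok and -0.0549 for Rgs14. Over all 11 such fits they ranged from -0.23 to -0.0125 for Bok and from -0.193 to -0.0549 for Rgs14. The part of striatal RNA in these levels was not tested.

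Other markers of the same fields, from lists assembled beside the 10, were examined in the same fit. Of 4 further CA1 markers, 0 passed the diet test, with a median log2 fold change of -0.07, and Ccn3 and Man1a, the genes with the smallest p of that list, had -0.10 (SE 0.09) and -0.07 (SE 0.06). Of 9 further CA2 markers, 0 passed, with a median of 0.01, among them the tyrosine phosphatase gene Ptpn5 at -0.07 (SE 0.06) and Map3k15 at 0.15 (SE 0.17). Of 6 further CA3 markers, 0 passed, with a median of 0.004, among them Dkk3 at -0.08 (SE 0.05) and the adhesion gene Nectin3 at 0.07 (SE 0.06).

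Of 5 hilar mossy cell markers, 0 passed either, and Calb2 (calretinin) had a log2 fold change of -0.12 (SE 0.11). Of 5 genes shared by forebrain pyramidal neurons, 0 passed, all with ratios below 0 and a median of -0.07, and Slc17a7, the vesicular glutamate transporter, had 1447 ± 103 CPM in CD and 1378 ± 124 CPM in FD F1 mice. The 5 pan-pyramidal genes summed to between 6594 and 8057 CPM per mouse, and the 5 markers of dentate granule cells to between 278.2 and 336.1 CPM, so RNA of both lists was present in each library.

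Markers of other tissue and cell types were counted in the same fit, and 0 passed the diet test in any list. The medians of the log2 fold changes were 0.05 for 5 dentate granule cell markers, 0.06 for the 6 of 7 thalamus markers that had enough counts, 0.12 for 5 striatum markers, -0.06 for 7 neocortex and subiculum markers, -0.09 for 7 choroid plexus markers and 0.22 for 5 meningeal fibroblast markers. They were 0.04 for 3 interneuron, 0.05 for 3 astrocyte, -0.06 for 3 oligodendrocyte, 0.007 for 3 microglia and 0.13 for 3 endothelial markers. The choroid plexus markers summed to between 35.6 and 89.7 CPM in CD and between 31.0 and 43.9 CPM in FD F1 mice, and Ttr, the transthyretin gene of the choroid plexus, had a log2 fold change of -1.19 (SE 0.47, adjusted p = 1.0). One of the 7 choroid plexus markers was at 0 in at least 1 mouse.

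The sexes were compared with diet in the model, since both diet groups held males and females. Of the 20589 genes, 1257 (6.11%) passed, 633 higher and 624 lower in males. Of the 10 field markers, 1 passed, the CA2 marker Rgs14, which fell in males. Its log2 fold change, male over female, was -0.24 (SE 0.07, adjusted p = 0.0928 in edgeR), so that the level fell by 15.5%. With 10 markers, 1 call stands beside the 6.11% called over all genes and is no result about the markers as a group.

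Rgs14 had 108.0, 119.3, 121.7, 116.6 and 96.1 CPM in the 5 males. The 6 females ranged from 116.1 through a median of 128.3 to 151.7 CPM. The sexes overlapped, and 3 females (CD female 1, CD female 3 and FD female 3, with 148.3, 151.7 and 139.9 CPM) lay above all males, while the other 3 females (116.1 to 116.7 CPM) lay within the male range. Leaving out 1 mouse at a time gave log2 fold changes from -0.30 to -0.20 with adjusted p from 0.0148 to 0.221, and in 8 of the 11 cases Rgs14 no longer passed (without any of CD females 1 and 3, CD males 1, 2 and 3, FD females 1 and 3 and FD male 2).

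The number of genes called between the sexes was itself unstable, from 18 to 3244 when 1 mouse was left out, with the lowest count without CD male 1 and the highest without CD female 2, and each of the 11 mice moved it by more than 1.5 times. With no diet term, 37 genes and 0 markers passed, and Rgs14 had an adjusted p of 0.155 in edgeR. Bok had a ratio at least as large as that of Rgs14, -0.27 (SE 0.10, adjusted p = 0.139), and passed in DESeq2 (adjusted p = 0.0986), where Rgs14 also passed (adjusted p = 0.0445). Fibcd1 had -0.18 (SE 0.07, adjusted p = 0.163) and Pcp4 -0.20 (SE 0.09, adjusted p = 0.214).

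Ratios below 0 were the rule among the markers, in 9 of 10, with a median of -0.11, while 50.9% of all genes had a ratio below 0. Iyd was the exception at 0.01 (SE 0.12). The remaining markers had ratios of -0.11 (Wfs1), -0.05 (Mpped1), -0.10 (Pou3f1), -0.07 (Amigo2) and -0.09 (Coch), none with an unadjusted p under 0.05. By field, the median was -0.11 for CA1, -0.20 for CA2 and -0.09 for CA3.

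**Figure D3:**
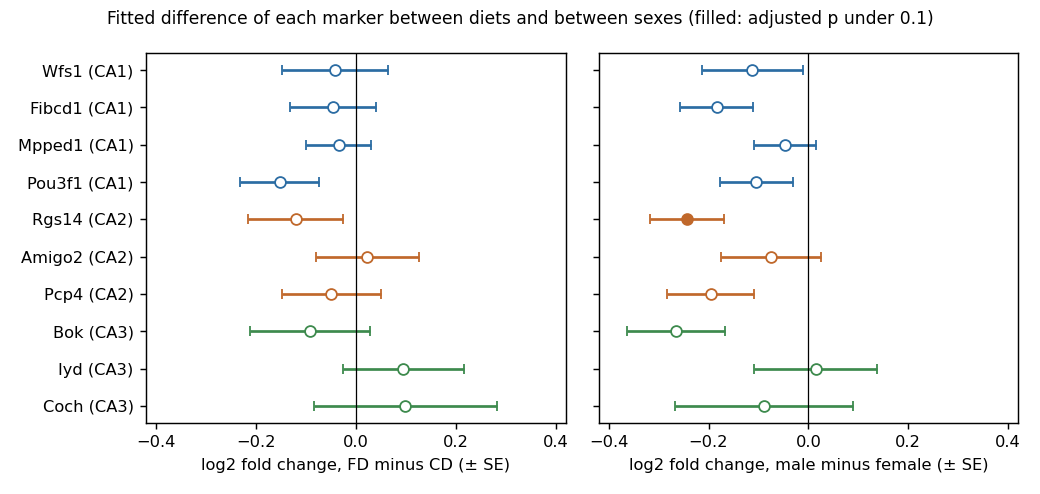
Points are the fitted log2 fold changes of the 10 markers, FD minus CD on the left and male minus female on the right, with bars of 1 SE and colours by field. A filled point passed an adjusted p of 0.1, which only Rgs14 did, between the sexes (-0.24).

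The further field markers did not pass in the sex comparison, with 0 of 4 for CA1 (median -0.01), 0 of 9 for CA2 (median -0.13) and 0 of 6 for CA3 (median -0.02). Within the CA2 list the directions differed, as Map3k15 had a ratio of 0.43 (SE 0.14, adjusted p = 0.107) and Ccdc3 one of -0.25 (SE 0.09, adjusted p = 0.126). Genes of other lists that passed included Nrgn, the pan-pyramidal gene of the calmodulin-binding protein neurogranin, with -0.43 (SE 0.09, adjusted p = 0.057), and C1qa, a complement gene of microglia, with -0.27 (SE 0.07, adjusted p = 0.0793). Both fell in males.

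The counts in the remaining lists were 0 of 5 for hilar mossy cell markers (median -0.17), 0 of 5 for dentate granule cell markers (0.03), 0 of 6 for thalamus markers (0.05), 0 of 5 for striatum markers (-0.30) and 0 of 7 for neocortex and subiculum markers (0.07). They were also 0 of 7 for choroid plexus (-0.21), 0 of 5 for meningeal fibroblast (0.03), 0 of 3 for interneuron (0.02), 0 of 3 for astrocyte (0.01) and 0 of 3 for endothelial markers (0.12). One gene passed in each of 3 lists, lower in males each time, as 1 of 5 pan-pyramidal genes (median -0.07), 1 of 3 oligodendrocyte markers (-0.27) and 1 of 3 microglia markers (-0.07).

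The difference of the diet effects between the sexes was tested as an interaction. No gene passed in edgeR (0 of 20589, 0%), 391 genes had an unadjusted p under 0.05, and DESeq2 called 0. Among the 10 markers, 0 had an unadjusted p under 0.05. The interaction terms lay between -0.24 for Coch (SE 0.37) and 0.17 for Fibcd1 (SE 0.15), with SE of 0.13 or more for each marker and only 2 or 3 mice per diet and sex.

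Whether markers of the same field varied together from mouse to mouse was examined over all 45 pairs of markers. Of the 45 pairs, 2 passed after adjustment over the pairs, and both joined different fields. Rgs14 of CA2 and Bok of CA3 had Pearson's r = 0.946 (permutation p = 0.00037, adjusted p = 0.0166) and Spearman's rho = 0.90 (permutation p = 0.00033, adjusted p = 0.0148) over the 11 mice. Pcp4 of CA2 and Bok had r = 0.843 (permutation p = 0.00109, adjusted p = 0.0245) and rho = 0.682 (permutation p = 0.0247, adjusted p = 0.185).

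The same 3 females lay at the top of both relations. CD female 1, CD female 3 and FD female 3 were the 3 highest mice for Rgs14, for Bok and for Pcp4. Over the other 8 mice, r was 0.884 for Rgs14 with Bok and 0.277 for Pcp4 with Bok, so the second relation rests on those 3 mice. Without the 2 mice farthest from the median of the first gene, r was 0.932 and 0.635. As deviations from the mean of each diet and sex, r was 0.932 for Rgs14 with Bok (exact permutation p = 0.00231, the smallest that shuffling within these groups can give, adjusted p = 0.104) and 0.785 for Pcp4 with Bok (exact permutation p = 0.0949, adjusted p = 0.741). Among 14436 genes averaging 1 CPM or more, Bok was the 17th most like Rgs14. Bok was only the 356th most like Pcp4, and Pcp4 the 657th most like Bok, so an r of this size was not particular to that pair.

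**Figure D4:**
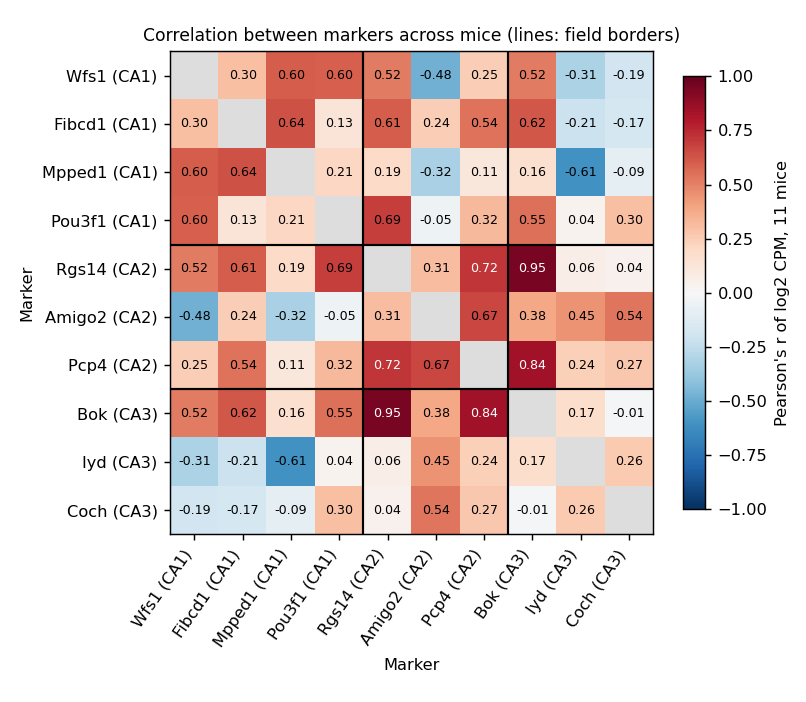
Each cell gives Pearson's r between the log2 CPM of 2 markers over the 11 mice, with black lines at the borders between the CA1, CA2 and CA3 markers. The darkest cells, Rgs14 with Bok (0.946) and Pcp4 with Bok (0.843), lie outside the field blocks, and the CA3 block is nearly colourless.

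No pair within a field passed, and each had a lower r than the 2 pairs that did. The 6 CA1 pairs had r from 0.13 to 0.638, with Fibcd1 and Mpped1 highest (permutation p = 0.0323, adjusted p = 0.221), and this pair fell to 0.141 without the 2 farthest mice. The 3 CA2 pairs had r from 0.311 (Rgs14 and Amigo2) to 0.717 (Rgs14 and Pcp4, permutation p = 0.0137, adjusted p = 0.206). The 3 CA3 pairs had r from -0.01 (Bok and Coch) to 0.258 (Iyd and Coch), the narrowest and lowest of the 3 ranges.

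The median r was 0.306 over the 12 pairs within a field and 0.243 over the 33 pairs between fields. It was above 0 in 11 of the 12 pairs within a field and in 24 of the 33 between fields. Values below 0 occurred in 10 of the 45 pairs, the lowest for Mpped1 and Iyd (r = -0.608, permutation p = 0.051, adjusted p = 0.221). Wfs1 and Amigo2, of neighbouring fields, had r = -0.48.

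The share of reads assigned to no gene, a summary line of each count file that may include reads in introns, differed between libraries and moved with several markers. It ranged from 7.01% to 11.03% of the aligned reads, with a mean of 10.2% ± 0.781 in males (n = 5) and 8.79% ± 1.2 in females (n = 6, exact permutation test, two-sided, p = 0.0606). Between the diets it was 9.23% ± 1.34 in CD and 9.64% ± 1.15 in FD F1 mice (exact permutation test, two-sided, p = 0.593).

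Of the 10 relations between a marker and this share, 4 passed by Pearson's r, each with a lower level where the share was higher. By Spearman's rho only that of Pcp4 passed. The adjusted permutation p of rho was 0.255 for Fibcd1 (rho = -0.564), 0.255 for Bok (rho = -0.609) and 0.288 for Rgs14 (rho = -0.473). The relation was strongest for Pcp4 (r = -0.833, permutation p = 0.00136, adjusted over the 10 relations 0.0136, rho = -0.755, permutation p = 0.00977, adjusted 0.0977), and r was -0.843 without the 2 mice farthest from the median share. Fibcd1 had r = -0.756 (permutation p = 0.00707, adjusted 0.0353), which fell to -0.35 without those 2 mice. Bok had r = -0.709 (permutation p = 0.0149, adjusted 0.0495) and Rgs14 r = -0.632 (permutation p = 0.0381, adjusted 0.0953). Iyd (r = 0.02) and Coch (r = -0.15) lay near 0.

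Such relations were frequent among all genes, since 12.3% of the 14437 genes averaging 1 CPM or more had r at or below -0.7, as 3 of the 10 markers did. As deviations from the mean of each diet and sex, 0 of the 10 relations passed, with r = -0.788 for Pcp4 (exact permutation p = 0.0532). With the share as a further term in the sex comparison, 9 genes and 0 markers passed, and the ratio was -0.17 for Rgs14 (SE 0.09, adjusted p = 0.679 in edgeR), -0.10 for Bok and 0.01 for Pcp4. The relation of Rgs14 and Bok remained at r = 0.911 after both were regressed on the share, while that of Pcp4 and Bok was 0.647. The part of this share in the differences was not tested beyond these fits.

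**Figure D5:**
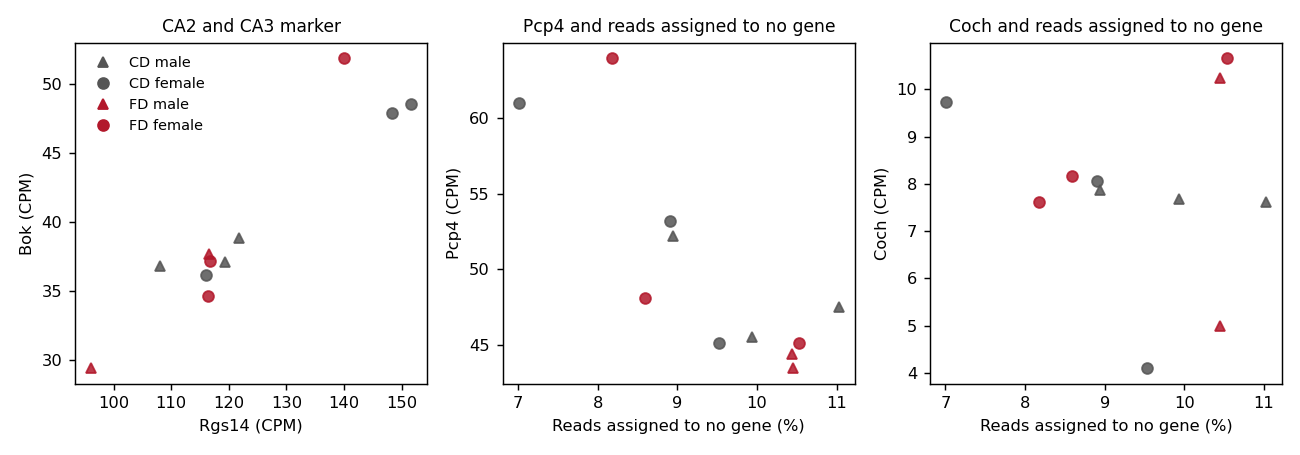
Each point is one mouse (grey CD, red FD, triangles males, circles females), with Bok against Rgs14 in CPM on the left, and Pcp4 and Coch in CPM against the percentage of reads assigned to no gene in the middle and on the right. Rgs14 and Bok are high together in 3 females, Pcp4 is lower where the share is higher (r = -0.833), and Coch is not (r = -0.146).

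RefSeq promoters (GRCm38.p6, from 250 bases before to 50 bases after the start) were found for 8 of the 10 markers, not for Pou3f1 and Rgs14. Those of Bok and Pcp4 are shown because this pair passed over the 11 mice, although the relation rests on 3 females (r = 0.277 over the other 8 mice). Capitals mark matches to the E-box CANNTG and to the GC box GGGCGG or its complement CCGCCC, searched on both strands, with no base in both motifs. The first is Bok at chr1:93685325-93685624 (plus strand) and the second Pcp4 at chr16:96467356-96467655 (plus strand).
Bok: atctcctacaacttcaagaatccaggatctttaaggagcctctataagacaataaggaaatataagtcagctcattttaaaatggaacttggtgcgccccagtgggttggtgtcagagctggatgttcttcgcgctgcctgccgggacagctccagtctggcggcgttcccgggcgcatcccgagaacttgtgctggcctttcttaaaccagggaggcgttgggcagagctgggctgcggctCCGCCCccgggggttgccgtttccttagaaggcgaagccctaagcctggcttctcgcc
Pcp4: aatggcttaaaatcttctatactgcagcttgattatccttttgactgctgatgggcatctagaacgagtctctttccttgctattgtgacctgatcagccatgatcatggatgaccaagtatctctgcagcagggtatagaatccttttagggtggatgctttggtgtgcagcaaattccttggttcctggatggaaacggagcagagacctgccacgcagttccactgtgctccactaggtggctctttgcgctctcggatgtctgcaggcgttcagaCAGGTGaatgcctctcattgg
The Bok promoter held 1 GC box and no E-box, and the Pcp4 promoter held 1 E-box and no GC box, so these promoters shared neither motif. Among all 32544 promoters, 72.3% held an E-box and 35.9% a GC box. Their GC content was 56.3% for Bok and 48.7% for Pcp4, beside a median of 53.0% over all promoters.

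A score for each field summarised the markers as the mean of their log2 CPM after the mean of each gene was removed. The CA1 score was 0.03 ± 0.12 in CD (SD, n = 6) and -0.04 ± 0.13 in FD F1 mice (n = 5). The CA2 score was 0.02 ± 0.16 in CD and -0.03 ± 0.19 in FD F1 mice, and the CA3 score was -0.02 ± 0.22 in CD and 0.03 ± 0.15 in FD F1 mice. Each difference between diets was smaller than the spread within a group.

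Single mice departed from a common shift of all fields. CD female 1 was high for all 3 fields, with scores of 0.19 for CA1, 0.28 for CA2 and 0.15 for CA3. FD female 3 was high for CA2 (0.29) and CA3 (0.19) and near 0 for CA1 (-0.01). FD female 1 had the opposite order, with 0.14 for CA1, -0.14 for CA2 and -0.04 for CA3. CD female 2 had the lowest CA3 score of all, -0.41, and FD male 2 the lowest CA1 score, -0.20. The CA3 score of CD female 2 drew most on Coch, at 4.10 CPM from 48 counts, although Bok and Iyd were also lowest in the CD group. Most of the further CA3 markers went the other way in this mouse. Dkk3 (513.6 CPM) and Nectin3 (64.9 CPM) lay above their CD means of 497.8 and 59.1 CPM. Others, at 76.7, 75.1 and 14.9 CPM, had their highest CD value in this mouse. Only the remaining marker, at 166.2 CPM, lay low in its range.

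The levels of Wfs1 (r = 0.735), Mpped1 (r = 0.727) and Pou3f1 (r = 0.631) followed the summed level of 7 neocortex and subiculum markers over the 11 mice, which lay between 149.7 and 171.3 CPM in CD and between 144.4 and 171.8 CPM in FD F1 mice, with none at 0 in any mouse. Fibcd1, the other CA1 marker, had r = 0.17 with the same sum. Among the other lists, the highest r was 0.729 for Wfs1 (further CA2 markers) and 0.701 for Mpped1 (further CA1 markers). For Pou3f1 it was 0.726 (choroid plexus markers), so by r other lists came near or above the neocortex and subiculum list. Spearman's rho with that list was 0.764 for Pou3f1, against 0.664 with choroid plexus markers. It was 0.745 for Mpped1, against 0.727 with further CA1 markers, and 0.745 for Wfs1, against 0.764 with further CA2 markers. The part of cortical or subicular RNA in these levels was not tested.

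By the rule of naming the 5 genes most like each score among the 14437 genes averaging 1 CPM or more, the CA1 score was followed by Srebf2 (r = 0.956), Rasal1 (0.954), Armc6 (0.945), Kat2a (0.936) and Clstn3 (0.935). The CA2 score was followed by Nudt10 (r = 0.968), Uqcrfs1 (0.953), Wrnip1 (0.948), 2010300C02Rik (0.948) and Anp32a (0.947), and the CA3 score by Ccdc30 (r = 0.937), Srpr (0.935), Gm14586 (0.921), Cox19 (0.92) and Cmpk1 (0.918). With the share of reads assigned to no gene, r lay between -0.826 and -0.719 for the 5 genes of CA1, between -0.817 and -0.569 for those of CA2 and between -0.568 and -0.161 for those of CA3.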

How the data were processed

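The deposited files held raw read counts by gene for each of the 11 hippocampi. Reads had been trimmed by the authors, whose methods name STAR for alignment to the mouse genome (GRCm38) and featureCounts for counting unique alignments. The summary lines of the files have the form that HTSeq writes, so the counter may differ. Strand setting and annotation release are not given in the sources used here. Gene IDs were matched to GENCODE symbols (36345 of 38293, 94.9%). Summary lines were left out of library sizes. Reads assigned to no gene made up 7.01% to 11.03% of each library, reads aligned more than once 13.7% to 16.01% and ambiguous reads 1.38% to 1.5%.

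Genes with at least 10 counts in all were normalized by TMM and tested with edgeR 4.0.16 (quasi-likelihood, Benjamini-Hochberg over all genes, threshold 0.1): FD against CD without covariates, male against female with diet, and their interaction. Log2 CPM used a prior count of 2. Correlations used 100000 permutations (scipy 1.17.1). DESeq2 1.42.0, RLE size factors, other filters, sex as a covariate of diet, a replicate block and leaving out mice were alternatives. The code was tested on simulated data. Groups and sexes came from the sample titles.

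Named genes were the 10 markers, in each other list the 2 genes with the smallest p and any that passed, and the 5 genes most like each field score. The markers and lists were chosen with earlier results of these data known. Some genes that this rule names are not reported here.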

Additional observations from a re-analysis of the deposited data

Results flagged for a closer look

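Values far from the rest of their group were looked for with Dixon's ratio in CD (n = 6) and in FD F1 mice (n = 5), which chance exceeds in about 1 of 20 groups. Among the 20 groups of marker values, 2 had such a value. Pcp4 was 64.0 CPM in FD female 3, with the other FD F1 mice between 43.5 and 48.1 CPM. Coch was 4.10 CPM in CD female 2, the shallowest library, where it rested on 48 counts. Of the striatum genes given with the markers, Ppp1r1b (54.3 CPM) and Adora2a (3.93 CPM) were also far above the group in FD female 3.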

How the results depend on the processing

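No marker passed the diet or the interaction test under any alternative run. The number of genes called between the diets was 14, and it became 8 with filterByExpr, 1 in females only, 2 in males only, 22 with the share of reads assigned to no gene as a covariate (chosen after seeing the data, as were all fits with that share), and 3 to 12 when 1 mouse was left out. Between the sexes, 1257 genes and 1 marker became 2043 and 2 with DESeq2, 2645 and 4 without a count filter, 37 and 0 without the diet term, 9 and 0 with the share of reads assigned to no gene, and 18 to 3244 and 0 to 3 with 1 mouse left out. The interaction called 10 genes without a count filter. Of the 45 pairs of markers, 2 passed, 0 as deviations from the diet by sex means and 4 given the share of reads assigned to no gene. Those 4 were Rgs14 with Bok, Mpped1 with Pcp4 (r = -0.794), Wfs1 with Amigo2 (r = -0.751) and, within CA2, Amigo2 with Pcp4 (r = 0.763). Pcp4 with Bok no longer passed (permutation test, adjusted p = 0.18). Of the 10 relations with that share, 4 passed by r, only that of Pcp4 by rho, and 0 as deviations from the diet by sex means. The causes were not tested.

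Diet ratios near 0 changed sign for Wfs1 in females only (0.00823), for Fibcd1 (0.0525) and Coch (-0.0474) in males only, and for Fibcd1 with the share of reads assigned to no gene (0.00299). With 1 mouse left out they ranged from -0.155 to 0.036 for Wfs1, from -0.0953 to 0.0239 for Fibcd1, from -0.0674 to 0.00367 for Mpped1, from -0.165 to 0.0132 for Pcp4 and from -0.0608 to 0.115 for Amigo2. Sex ratios changed sign with the share of reads assigned to no gene for Wfs1 (0.00953), Mpped1 (0.0459), Amigo2 (0.0347), Pcp4 (0.0102) and Coch (0.00421), for Iyd without the diet term (-0.00238), and with 1 mouse left out for Iyd (-0.053 to 0.103) and Coch (-0.224 to 0.0871). The Amigo2 interaction was -0.00459 with DESeq2.

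Replicate numbers are shared between the diets within each sex. Deviations from the diet by sex means of the 5 numbered pairs had correlations from 0.00515 to 0.386, not all above 0.1, so the numbers were not taken to pair the mice. In 4 of the 5 pairs the CD mouse correlated best with its own number among FD mice of its sex. A replicate block called 25 genes between the diets and no marker, and gave -0.0312 for Amigo2. In the interaction the block gave 0.0409 for Pou3f1, -0.0486 for Amigo2 and -0.0268 for Iyd. It changed no other direction and no call of a marker. Coch and Iyd are limited most by depth.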
